A study of Homo sapiens with 9 samples.

Results

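The genes described here are 52 subunits of the ATP-dependent chromatin remodelling complexes in MDA-MB-231, an established human cell line from a triple-negative breast cancer. They were chosen by symbol from a list of known complex members, with earlier results of these data known. All 52 were found among the 63657 genes of the deposited expression table. The list has 21 SWI/SNF genes, 8 ISWI genes, 16 CHD/NuRD genes and 7 INO80 genes. The series also holds ChIP-seq and ATAC-seq, which were not used here. RNA-seq was done on cells infected with a control short hairpin RNA (shControl, 2 libraries) and on cells infected with a short hairpin RNA that depletes LOXL2 (shLOXL2, 2 libraries). LOXL2 is a lysyl oxidase-like enzyme to which the oxidation of lysine 4 on histone H3 is attributed, and the series title links that mark to condensed chromatin. The labels do not say how many hairpins were used or whether replicates are separate cultures, so the p-values below reflect how far these 4 libraries differ, a spread that may be technical.

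Remodelling complexes burn ATP to slide, evict or exchange nucleosomes, and each is built around a motor of the SNF2 family. SWI/SNF complexes mostly open chromatin, come in forms called BAF, PBAF and non-canonical BAF, and are often mutated in cancer. ISWI complexes space nucleosomes evenly, NuRD couples a CHD motor to the histone deacetylases HDAC1 and HDAC2, and INO80 moves nucleosomes at replication forks, breaks and promoters. The RNA comparison asks how the transcripts of these machines differ when LOXL2 is depleted.

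LOXL2 itself stood at 85.5 and 84.5 FPKM in shControl and at 15.2 and 12.1 FPKM in shLOXL2, so the hairpin target was low in both libraries labelled shLOXL2. FPKM is a fragment number scaled to transcript length and library size. Depth in reads cannot be read from it and is unknown here, and sums over all genes were 1244380 and 1221570 FPKM in shControl and higher, at 1330440 and 1369370 FPKM, in shLOXL2. The line's own markers VIM, CD44 and EGFR were present, summing to between 2451 and 2537 FPKM per library although CD44 and EGFR fell (limma adjusted p = 0.0172 and 0.0497), and of 3 receptor genes ESR1 and PGR were below 0.1 FPKM in every library while ERBB2 lay between 26.1 and 29.8 FPKM. Of 5 fibroblast markers, DCN, LUM and COL1A2 stayed below 0.25 FPKM and COL1A1 rose (limma adjusted p = 0.0287), so the list summed to 5.79 and 7.28 FPKM in shControl and to 12.2 and 9.71 FPKM in shLOXL2. The part of that sum in the results below was not tested. Of 4 haematopoietic markers, CD3E was listed at 0 in all 4 libraries, and the list summed to at most 3.67 FPKM.

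All 52 members had a mean of at least 1 FPKM and entered the test. Their control levels ran from 2.91 FPKM for BCL7A to 582 FPKM for CHD4, with a median of 36.2 FPKM against 12.7 FPKM over all tested genes. 6 members differed between shLOXL2 and shControl by limma on log2(FPKM + 1) at a Benjamini-Hochberg adjusted p below 0.05. HDAC1 and INO80B rose, and RBBP4, PHF10, BAZ2A and RBBP7 fell. These 6 are 11.5% of the members, while 16.9% of the 16987 tested genes passed. The 2 that rose are 3.85% of the members against 8.35% of tested genes, and the 4 that fell are 7.69% against 8.54%. The share of remodeller genes that passed was thus no higher than that of all tested genes. When low genes were not filtered out the order turned, with 7.69% of members against 3.16% of 36224 genes. What follows describes single subunits.

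The groups did not overlap for 34 members, or 65.4%, against 64.6% of tested genes. The median log2 change over the members was -0.0027, against -0.0041 over all tested genes. A log2 change smaller than 0.25 in either direction was found for 44 of the 52, and for 10725 of the 16987 tested genes. The median control level of the members was also the higher, as given above. With all libraries 19 members, or 36.5%, had an unadjusted p below 0.05 in limma, against 35.9% of tested genes. When any 1 library was dropped, which leaves 1 residual degree of freedom, no member passed limma's threshold. Whole-series calls dropped in the same way, to between 1.14% and 1.73% of tested genes.

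**Figure D1:**
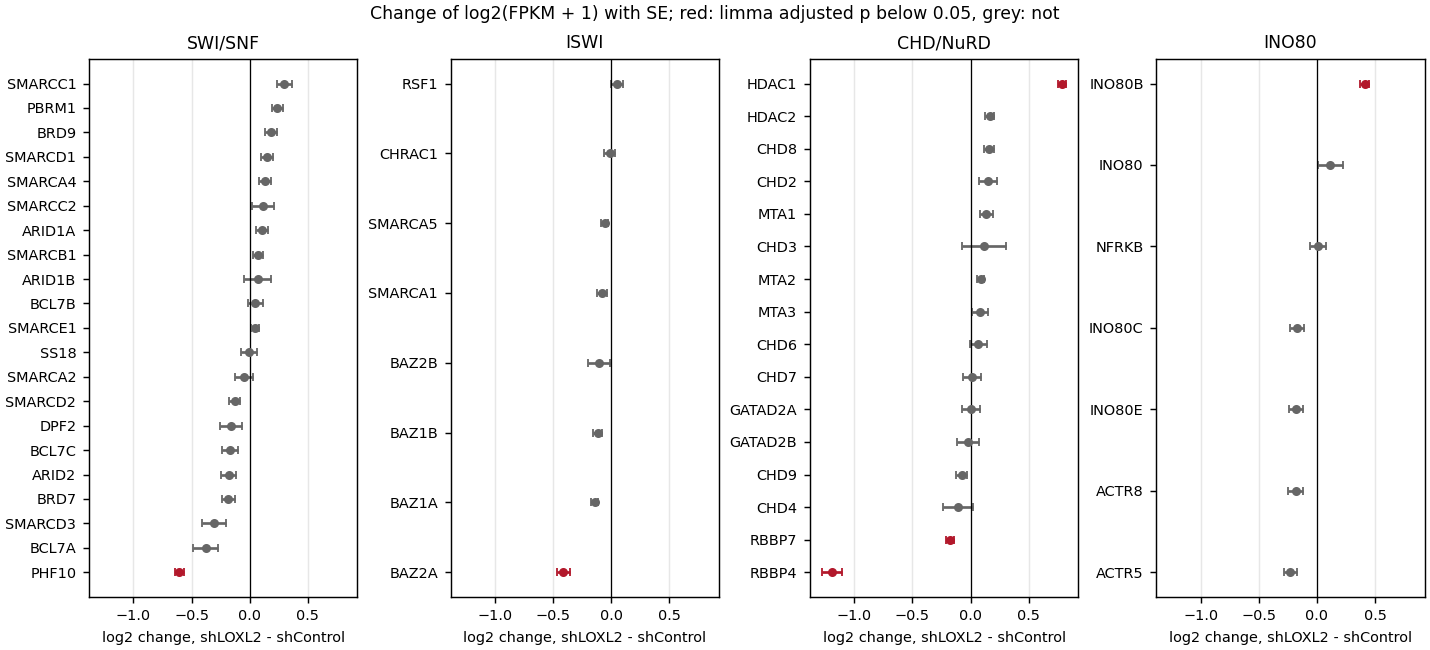
Change of each member between shLOXL2 and shControl on the log2(FPKM + 1) scale, with its standard error from limma, in 4 panels by complex. Red points passed an adjusted p of 0.05, and they are HDAC1, RBBP4 and RBBP7 of CHD/NuRD, PHF10 of SWI/SNF, BAZ2A of ISWI and INO80B of INO80, while the other 46 points are grey.

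The promoters of the 3 members with the largest changes are shown because 1 of them rose while the others fell. Each is the 250 bases before the first-listed transcription start in RefSeq (GRCh38.p14), 5′ to 3′ on the gene's strand. Capitals mark matches on either strand to the GC box, spelled GGGCGG, to the motif CCAAT and to the E-box, spelled CACGTG. HDAC1 lies on chromosome 1 at 32291833 to 32292082 (plus strand), RBBP4 on chromosome 1 at 32650958 to 32651207 (plus strand) and PHF10 on chromosome 6 at 169724501 to 169724750 (minus strand).
HDAC1: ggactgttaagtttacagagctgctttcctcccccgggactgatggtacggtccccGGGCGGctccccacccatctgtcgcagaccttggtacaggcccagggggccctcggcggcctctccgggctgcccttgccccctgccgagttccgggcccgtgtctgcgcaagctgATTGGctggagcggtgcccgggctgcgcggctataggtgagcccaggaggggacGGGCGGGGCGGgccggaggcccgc
RBBP4: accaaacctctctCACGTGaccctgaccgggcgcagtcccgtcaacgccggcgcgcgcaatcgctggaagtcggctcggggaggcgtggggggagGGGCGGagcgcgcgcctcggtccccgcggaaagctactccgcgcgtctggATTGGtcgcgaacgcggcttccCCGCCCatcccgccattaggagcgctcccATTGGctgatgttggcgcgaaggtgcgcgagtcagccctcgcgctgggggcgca
PHF10: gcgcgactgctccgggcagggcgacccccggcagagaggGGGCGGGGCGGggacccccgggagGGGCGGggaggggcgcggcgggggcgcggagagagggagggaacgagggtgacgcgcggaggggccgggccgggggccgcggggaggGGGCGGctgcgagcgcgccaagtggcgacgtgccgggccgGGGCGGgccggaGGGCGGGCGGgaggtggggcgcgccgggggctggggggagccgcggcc

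HDAC1 and RBBP4 start 359 kb apart on the same chromosome and changed in opposite directions. Both windows held CCAAT and GC boxes, HDAC1 with 1 CCAAT and 3 GC boxes and RBBP4 with 2 of each, and RBBP4 also held 1 E-box. PHF10 had 7 GC boxes, counting overlapping matches, and a GC content of 86.4%. Promoters were listed for 45 of the 52 members, not for BAZ1A, CHD7, SMARCC2, CHRAC1, SMARCC1, ARID2 or CHD6. GGGCGG was found in 33 of these 45, or 73.3%, against 42.3% of the same window in 27305 promoters. The median GC content was 67.2% over the members and 58.0% over all promoters, so the letters of that motif were also commoner in the members. CCAAT was found in 33.3% of members and 33.0% of all promoters, CACGTG in 6.67% and 6.49%, and TATAAA in 0 of 45 members and 11.1% of all promoters. These matches are a description of the letters and name no factor.

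Among the NuRD subunits, the deacetylase gene HDAC1 (ENSG00000116478) rose in shLOXL2 cells. Its product removes acetyl groups from histone tails and also works in the Sin3 and CoREST complexes. HDAC1 stood at 109.8 and 106 FPKM in shControl and at 185 and 188 FPKM in shLOXL2. Both shLOXL2 values lie well above both controls, at 1.73 times the control mean. This is 0.79 ± 0.035 on the log2 scale (SE, n = 2 per group, limma adjusted p = 0.0124). HDAC2, its close paralog, stood at 147 and 150.2 FPKM in shControl and at 163 and 171 FPKM in shLOXL2. Its groups did not overlap, but the change of 0.17 ± 0.039 on the log2 scale did not pass (SE, n = 2 per group, limma adjusted p = 0.0751). With protein-coding genes tested alone, an alternative added after seeing the data, HDAC2 passed (limma adjusted p = 0.0252), where 38.5% of the genes did.

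RBBP4 (ENSG00000162521) had the largest change of all members. It encodes a WD-repeat protein that binds histone H4 and is shared by NuRD, the Polycomb complex PRC2, the Sin3 complex and the replication-coupled chaperone CAF-1. RBBP4 was at 45.5 and 41.3 FPKM in shControl and at 19.4 and 17.4 FPKM in shLOXL2. The shLOXL2 libraries kept 42.4% of the control mean, with a log2 change of -1.19 ± 0.084 (SE, n = 2 per group, limma adjusted p = 0.0140). RBBP7, its paralog and also a NuRD subunit, was more abundant and changed less, from 230.2 and 237 FPKM in shControl to 207 FPKM in both shLOXL2 libraries. Its change was -0.18 ± 0.032 on the log2 scale (SE, n = 2 per group, limma adjusted p = 0.0484). RBBP7 lost its call when libraries were scaled to a common median (adjusted p = 0.0950), when low genes were not filtered out (0.0889) and when the variance prior had no trend (0.0931). TXLNG overlaps RBBP7 in RefSeq and had a log2 change of -0.21 without passing (limma adjusted p = 0.0904). SYNC overlaps RBBP4 and did not pass (limma adjusted p = 0.571). Whether counting used strand is not stated, so reads in shared stretches cannot be told apart.

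Processed copies of these genes moved with them. The RBBP4 pseudogenes RBBP4P1 and RBBP4P2 stood at 40.4% and 42.6% of their control means and fell (limma adjusted p = 0.0154 and 0.0218). RBBP4P4 stood at 41.1% and did not pass (limma adjusted p = 0.0568). HDAC1P2, a pseudogene of HDAC1, rose to 1.61 times its control mean (limma adjusted p = 0.0224), close to the 1.73 of HDAC1. The copies were low, with HDAC1P2 at most 7.19 FPKM and RBBP4P1, the highest copy of RBBP4, at most 6.01 FPKM in any library. The sources used here do not say how fragments that match several copies were assigned, so the FPKM of each parent and copy is uncertain by the fragments they share.

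**Figure D2:**
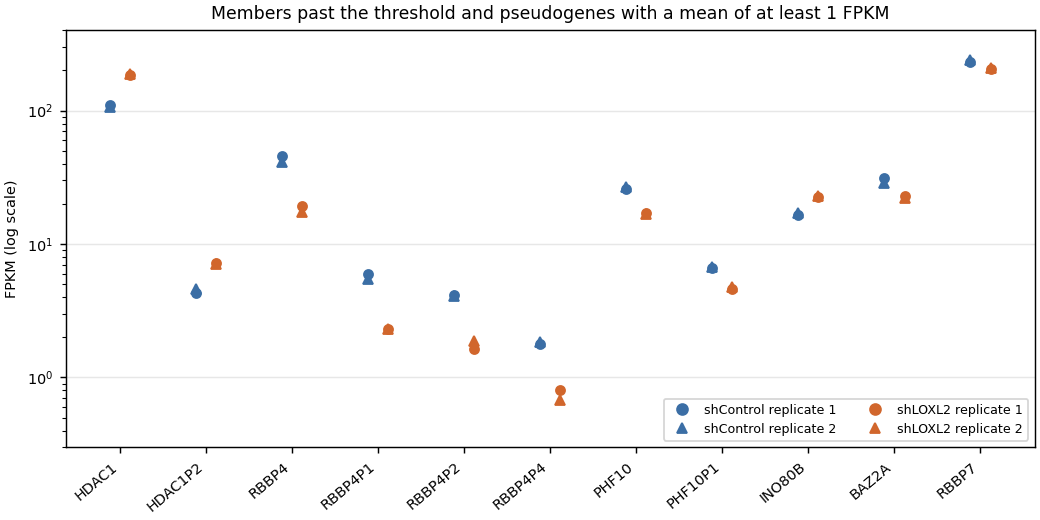
FPKM (log axis) in each of the 4 libraries for the 6 members past the threshold and for the pseudogenes of HDAC1, RBBP4 and PHF10 with a mean of at least 1 FPKM, with circles for replicate 1 and triangles for replicate 2. In every column the blue shControl points and the orange shLOXL2 points are apart, and each pseudogene lies on the same side as its parent gene.

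The other NuRD and CHD genes did not pass. CHD4, the main NuRD motor and the most abundant member, was at 549 and 616 FPKM in shControl and at 597 and 489.5 FPKM in shLOXL2. CHD3, the alternative NuRD motor, was at 122 and 115 FPKM in shControl and at 152 and 108 FPKM in shLOXL2. In both genes the shLOXL2 libraries lay on either side of a control value, so the groups overlapped, and the standard errors of 0.13 and 0.19 on the log2 scale were the largest among the members. The scaffolds MTA1, MTA2 and MTA3 had log2 changes of 0.13, 0.087 and 0.084, and the bridging subunits GATAD2A and GATAD2B 0.0027 and -0.025, none past the threshold (limma adjusted p from 0.135 to 0.988).

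CHD8, a motor of the CHD6 to CHD9 group that is known as a regulator of neural development, was at 54.3 and 55.2 FPKM in shControl and at 63.3 and 59.3 FPKM in shLOXL2. The groups did not overlap and the change did not pass (log2 0.16 ± 0.047, SE, n = 2 per group, limma adjusted p = 0.110), though it did among protein-coding genes alone (limma adjusted p = 0.0490). CHD2, a motor linked to deposition of histone H3.3, was at 48.1 and 54.1 FPKM in shControl and at 58.3 and 55.1 FPKM in shLOXL2. CHD7, the CHARGE syndrome gene, was at 10.4 and 11.7 FPKM in shControl and at 11.4 and 10.8 FPKM in shLOXL2, with overlapping groups. CHD6 was at 26.1 and 26.3 FPKM in shControl and at 29.2 and 25.9 FPKM in shLOXL2. CHD9 was at 17.4 and 17.02 FPKM in shControl and at 16.7 and 15.8 FPKM in shLOXL2, slightly lower in both depleted libraries. Over the 16 CHD/NuRD genes, 1 rose and 2 fell, or 18.8% against 16.9% of tested genes. A positive log2 change was seen for 11 of them, or 68.8% against 49.3% of tested genes, and the median was 0.076.

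In SWI/SNF, PHF10 (ENSG00000130024) fell and was the 1 gene of 21 that passed, or 4.76% against the 16.9% of all tested genes. PHF10 encodes BAF45A, a double PHD finger subunit found in the PBAF form. It was at 25.8 and 26.7 FPKM in shControl and at 17.1 and 16.7 FPKM in shLOXL2, or 64.4% of the control mean. Replicates differed by little beside this gap, and the change was -0.61 ± 0.040 on the log2 scale (SE, n = 2 per group, limma adjusted p = 0.0134). Its pseudogene PHF10P1 also fell, to 69.7% of its control mean (limma adjusted p = 0.0273). C6orf120, a gene that overlaps PHF10 in RefSeq, rose from 16.3 and 15.9 FPKM to 24.6 and 26.5 FPKM (limma adjusted p = 0.0168). The sources used here do not say whether counting used strand, so reads in the stretch that PHF10 and C6orf120 share cannot be told apart.

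The other subunits that define PBAF did not pass. PBRM1, the polybromo protein that reads acetylated histones, was at 40.6 and 38.9 FPKM in shControl and at 48.3 and 45.7 FPKM in shLOXL2 (log2 0.24 ± 0.048, SE, n = 2 per group, limma adjusted p = 0.0580). PBRM1 passed when the filter was 5 FPKM (adjusted p = 0.0409), with libraries scaled to a common median (0.0435) and with protein-coding genes alone (0.0154). ARID2, the DNA-binding PBAF subunit, was at 7.06 and 6.85 FPKM in shControl and at 6.24 and 5.79 FPKM in shLOXL2 (limma adjusted p = 0.136). BRD7, its bromodomain subunit, was at 30.3 and 29.2 FPKM in shControl and at 25.0 and 27.3 FPKM in shLOXL2 (limma adjusted p = 0.129). So of the 4 PBAF genes PHF10 fell, and PBRM1 lay on the other side of its controls from ARID2 and BRD7.

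The 2 alternative motors of SWI/SNF did not pass. SMARCA4, which encodes BRG1, was at 91.1 and 96.4 FPKM in shControl and at 106 and 99.5 FPKM in shLOXL2 (limma adjusted p = 0.194). SMARCA2, which encodes BRM, was at 29.9 and 26.1 FPKM in shControl and at 27.4 and 26.5 FPKM in shLOXL2 (limma adjusted p = 0.711). SMARCA4 was thus the higher motor gene in every library, at 3.05 to 3.87 times SMARCA2 in FPKM, a level per length.

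Among the core subunits, SMARCC1 (BAF155), a scaffold on which the complex assembles, came nearest to the threshold. It was at 44.0 and 48.9 FPKM in shControl and at 57.8 and 56.5 FPKM in shLOXL2 (log2 0.30 ± 0.065, SE, n = 2 per group, limma adjusted p = 0.0668), and it passed when the filter was 5 FPKM (adjusted p = 0.0454) and among protein-coding genes alone (0.0115). SMARCB1, the subunit lost in rhabdoid tumours, had a log2 change of 0.073, SMARCE1 of 0.044 and SMARCC2 of 0.12. Of the interchangeable BAF60 subunits SMARCD1 had 0.15, SMARCD2 -0.13 and SMARCD3 -0.31. ARID1A, a frequent tumour suppressor of the BAF form, had 0.11 and ARID1B 0.069.

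The remaining SWI/SNF genes were BRD9 of the non-canonical form (log2 0.18), the BAF PHD finger gene DPF2 (-0.16), SS18 (-0.0080), BCL7A (-0.38), BCL7B (0.048) and BCL7C (-0.17). None passed (limma adjusted p from 0.108 to 0.949). SS18, the gene fused in synovial sarcoma, was the most abundant of the 21 at 154 FPKM in shControl, and BCL7A the lowest. BCL7A was at 3.14 and 2.68 FPKM in shControl and at 1.94 and 2.07 FPKM in shLOXL2, and the added pseudocount shrinks its change more than that of abundant genes. BCL7A passed among protein-coding genes alone (limma adjusted p = 0.0264).

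**Figure D3:**
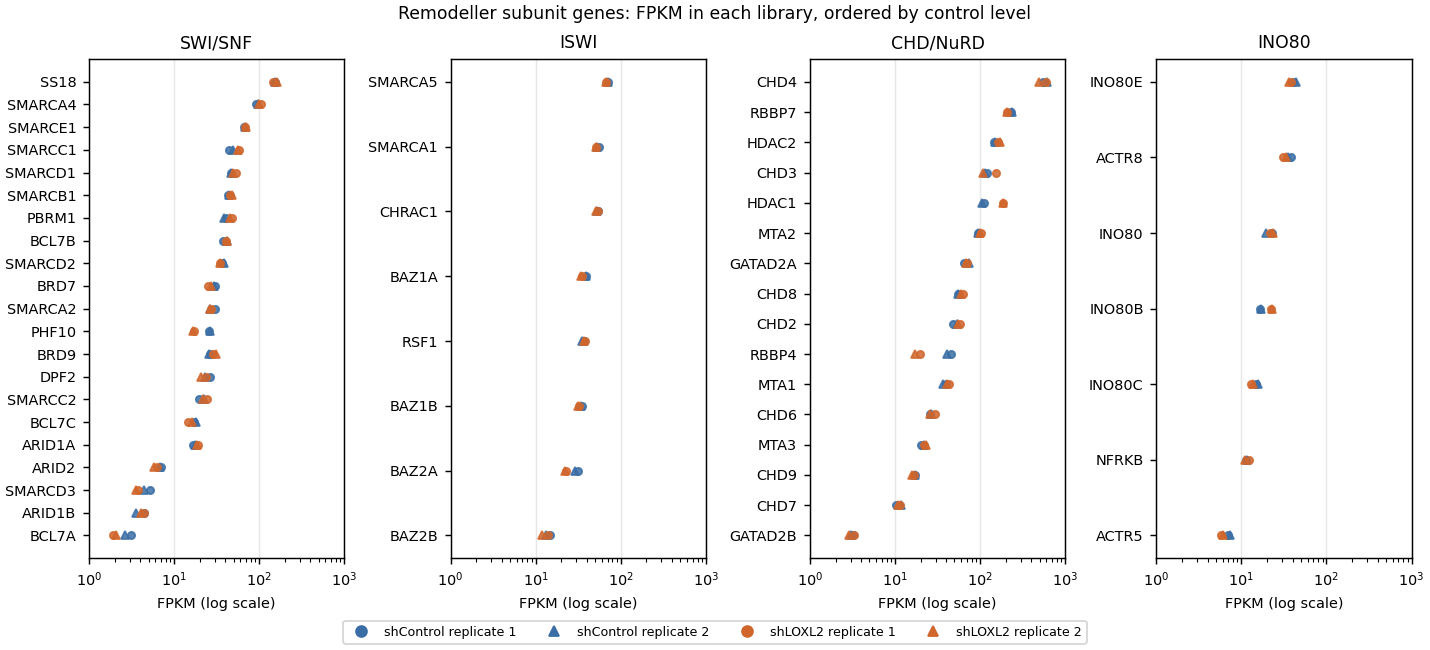
FPKM (log axis) of all 52 members in the 4 libraries, in 4 panels by complex and ordered by the control mean, with blue for shControl and orange for shLOXL2. CHD4 is the highest member and BCL7A the lowest, and for most genes the 4 points nearly coincide, with RBBP4, HDAC1 and PHF10 as visible exceptions.

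In the ISWI group, BAZ2A (ENSG00000076108) fell and was the 1 of 8 that passed, or 12.5% against 16.9% of tested genes. BAZ2A encodes TIP5, the partner of the SMARCA5 motor in NoRC, the complex that silences ribosomal RNA genes. It was at 31.4 and 28.9 FPKM in shControl and at 22.8 and 22.0 FPKM in shLOXL2, 74.3% of the control mean, without overlap. This is -0.41 ± 0.057 on the log2 scale (SE, n = 2 per group, limma adjusted p = 0.0314). BAZ2A lost its call when low genes were not filtered out (adjusted p = 0.0677) and when the variance prior had no trend (0.0509). ATP5F1B and RBMS2 overlap BAZ2A in RefSeq, and neither passed (limma adjusted p = 0.425 and 0.512).

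The ISWI motors did not pass. SMARCA5 (SNF2H) was at 70.3 and 70.4 FPKM in shControl and at 67.8 and 67.6 FPKM in shLOXL2. SMARCA1 (SNF2L) was at 55.9 and 53.2 FPKM in shControl and at 51.6 FPKM in both shLOXL2 libraries. Both were slightly lower in the depleted cells without overlap (limma adjusted p = 0.269 and 0.258). BAZ1A, the ACF1 partner, had a log2 change of -0.14 (limma adjusted p = 0.0761), BAZ1B, the Williams syndrome transcription factor, -0.12, BAZ2B -0.10, RSF1 0.051 and the histone-fold subunit CHRAC1 -0.014. In all, the log2 change was negative for 7 of the 8 ISWI genes and positive for 1, or 12.5% positive against 49.3% of tested genes. The median was -0.091, against -0.0041 over all tested genes, with 1 past the threshold. Groups did not overlap for 5 of the 8, or 62.5% against 64.6% of tested genes.

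In INO80, INO80B (ENSG00000115274) rose and was the 1 of 7 that passed, or 14.3% against 16.9% of tested genes. It encodes the IES2 subunit, which stimulates the motor. INO80B was at 16.5 and 17.1 FPKM in shControl and at 22.3 and 23.0 FPKM in shLOXL2, 1.35 times the control mean. All replicates of a group lay within 1 FPKM of each other, and the change was 0.41 ± 0.041 on the log2 scale (SE, n = 2 per group, limma adjusted p = 0.0205). RefSeq also holds a read-through transcript, INO80B-WBP1, which shares sequence with INO80B.

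The INO80 motor gene was at 22.7 and 19.2 FPKM in shControl and at 21.6 and 23.8 FPKM in shLOXL2, with overlap (limma adjusted p = 0.484). The actin-related ACTR5 and ACTR8 had log2 changes of -0.23 and -0.18. INO80C had -0.17, INO80E -0.18 and NFRKB 0.011. For ACTR5, ACTR8, INO80C and INO80E both shLOXL2 values lay below both controls, and none passed (limma adjusted p from 0.0866 to 0.159). INO80B thus had the opposite sign to 4 subunits of its own complex and the same sign as INO80 (log2 0.12) and NFRKB. Groups did not overlap for 5 of the 7 INO80 genes, or 71.4% against 64.6% of tested genes.

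No gene among the 12 motors passed, and 1 of them, CHD8, had an unadjusted p below 0.05 in limma, or 8.33% against 35.9% of tested genes. Of the 40 other subunits 2 rose and 4 fell, or 15.0% against 16.9% of tested genes, and 18 had an unadjusted p below 0.05, or 45.0% against 35.9%. The highest and lowest log2 changes among the motors were 0.16 and -0.10, and among the other subunits 0.79 and -1.19. The difference between motors and other subunits was not tested.

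Many subunits have paralogs or related forms, so the ratio of their FPKM was taken within each library. Of 17 pairs, the ratios of the 2 groups did not overlap for 10, with 8 higher and 2 lower in shLOXL2. Among single tested genes the groups did not overlap for 64.6%, and the share over other gene pairs was not computed. With 2 libraries per group the exact two-sided permutation test cannot give less than p = 0.333, which all 10 reached, so no ratio can pass a threshold of 0.05 before or after adjustment for 17 pairs. HDAC1 went from 0.746 and 0.705 of the HDAC2 level in shControl to 1.14 and 1.10 in shLOXL2, so the order of the 2 deacetylase genes in FPKM reversed. RBBP4 went from 0.198 and 0.174 of the RBBP7 level to 0.0940 and 0.0841. These 2 pairs repeat the changes of HDAC1 and RBBP4 given above and are no separate evidence.

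Other ratios joined small opposite changes of genes that did not pass alone. BRD9, of non-canonical BAF, stood at 0.880 and 0.882 of BRD7, of PBAF, in shControl and at 1.15 and 1.14 in shLOXL2. The replicates of that ratio differed by 0.0035 and 0.016 on the log2 scale, beside a difference between groups of 0.38. SMARCD1 over SMARCD2 went from 1.27 and 1.19 to 1.55 and 1.43, and SMARCD1 over SMARCD3 from 8.88 and 10.6 to 14.1 and 13.9. The ratio of ARID1A, of BAF, to ARID2, of PBAF, went from 2.36 and 2.599 to 3.04 and 3.17. For these pairs every shLOXL2 ratio lay above every control ratio.

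The SMARCA4 to SMARCA2 ratio was 3.05 and 3.70 in shControl and 3.87 and 3.75 in shLOXL2, so the gap between groups was smaller than the spread of the controls. SMARCC1 over SMARCC2 and BCL7B over BCL7C were also higher in shLOXL2 without overlap. BAZ2A over BAZ2B was lower, going from 2.15 and 2.19 to 1.65 and 1.84. Ratios overlapped for SMARCA5 over SMARCA1, BAZ1A over BAZ1B, ARID1A over ARID1B, CHD4 over CHD3, MTA1 over MTA2, MTA2 over MTA3 and GATAD2A over GATAD2B. PHF10 over DPF2, a pair added after seeing the data, went from 0.979 and 1.14 to 0.729 and 0.803, also without overlap.

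**Figure D4:**
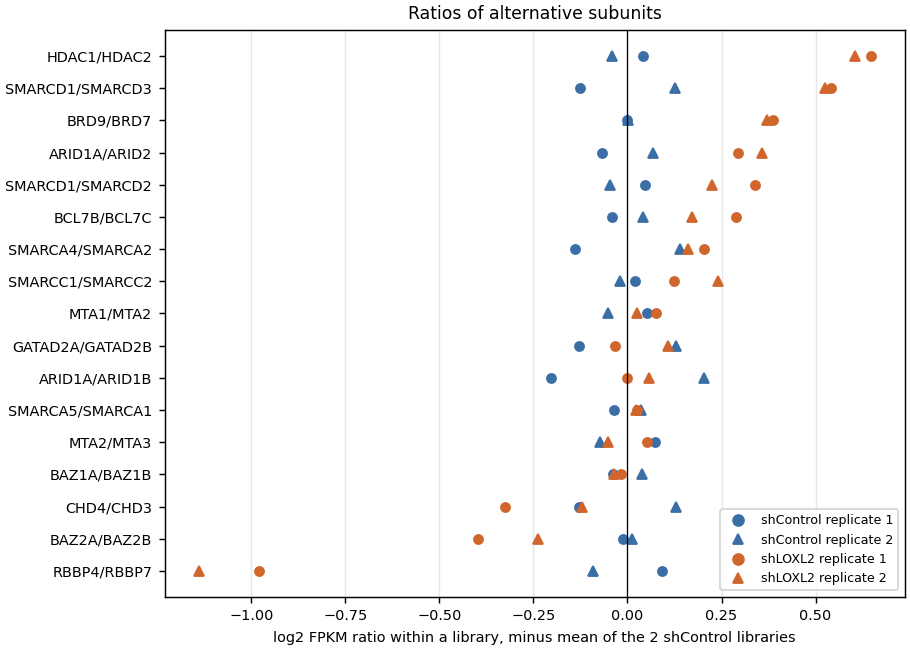
Log2 ratio of FPKM for 17 pairs of related subunits in each library, shown relative to the mean of the 2 shControl libraries, with circles for replicate 1 and triangles for replicate 2. RBBP4/RBBP7 lies furthest to the left and HDAC1/HDAC2 furthest to the right, while SMARCA5/SMARCA1 and BAZ1A/BAZ1B show overlapping groups near 0.

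Subunit RNA was also summed over each complex. The SWI/SNF genes summed to 772 and 785 FPKM in shControl and to 795 and 801 FPKM in shLOXL2. The ISWI genes summed to 337 and 326 FPKM in shControl and to 316 and 307 FPKM in shLOXL2. The CHD/NuRD genes summed to 1583 and 1661 FPKM in shControl and to 1744 and 1584 FPKM in shLOXL2, with 34.3% of that from CHD4. INO80 genes summed to 151 and 150.1 FPKM in shControl and to 144 and 148 FPKM in shLOXL2. Sums over all genes were also higher in both shLOXL2 libraries, and their part in these values was not tested. The log2 differences were 0.036, -0.090, 0.035 and -0.047, and over these 4 sums the exact two-sided permutation p was 0.333 for SWI/SNF, ISWI and INO80, the smallest possible, and 0.667 for CHD/NuRD.

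Further remodelling genes outside the 52 were read from a list of the same complexes, other SNF2 proteins and Polycomb, whose PRC2 shares RBBP4 with NuRD. That list too was chosen with earlier results of these data known. Of 38 tested, 2 rose and 7 fell, or 23.7% against 16.9% of all tested genes. The core genes of PRC2, the methyltransferase complex of H3K27, all fell. EZH2, the enzyme, went from 33.3 and 32.8 FPKM to 25.3 and 26.1 FPKM (limma adjusted p = 0.0222). SUZ12 went from 22.4 and 22.0 FPKM to 17.1 and 17.7 FPKM (limma adjusted p = 0.0240) and EED from 25.4 and 24.9 FPKM to 21.1 and 21.4 FPKM (limma adjusted p = 0.0359). CBX2, RING1 and RNF2 of PRC1 did not pass.

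Among 9 genes of the INO80 family, YY1, the DNA-binding partner of INO80, fell and none rose, or 11.1% called against 16.9% of all tested genes. YY1 went from 82.5 and 81.8 FPKM to 66.3 and 65.2 FPKM (limma adjusted p = 0.0198). Of 9 other SNF2 genes, SMARCAD1, a remodeller of replicated chromatin, rose (log2 0.26) and 3 fell, namely HELLS, a remodeller needed for DNA methylation (-0.41), the transcription-coupled repair gene ERCC6 (-0.56) and the transcription termination factor gene TTF2 (-0.29), with limma adjusted p from 0.0286 to 0.0389. That is 44.4% of the 9, against 16.9% of all tested genes. Of 6 more SWI/SNF genes ACTB, the cytoskeletal actin that is also a BAF subunit, rose (log2 0.38, limma adjusted p = 0.0240). That is 16.7% of the 6, near the 16.9% of all tested genes. Of 2 more ISWI genes none passed. BPTF, the NURF subunit whose PHD finger binds methylated H3K4, was at 29.2 and 26.9 FPKM in shControl. It was at 34.2 and 34.6 FPKM in shLOXL2 and just missed the threshold (limma adjusted p = 0.0514). POLE3 was lower, at 69.8 and 73.1 FPKM in shControl and at 61.6 and 63.7 FPKM in shLOXL2 (limma adjusted p = 0.0684). No gene of 6 more CHD/NuRD genes passed, with 1 at an unadjusted p below 0.05 in limma, or 16.7% against 35.9% of tested genes. It was MBD3, lower in shLOXL2 (log2 -0.16, limma adjusted p = 0.0541). Of the neural forms of BAF subunits, ACTL6B was at no more than 0.01 FPKM, DPF3 at 5.16 to 6.16 FPKM and SS18L1 at 8.16 and 9.28 FPKM in shControl and at 10.3 and 9.63 FPKM in shLOXL2 (limma adjusted p = 0.233). DPF1 was at 4.82 and 5.75 FPKM in shControl and at 2.83 and 3.33 FPKM in shLOXL2 (limma adjusted p = 0.0555), whereas TUBB3, a neuronal tubulin, rose (log2 1.02, limma adjusted p = 0.0124) and carried most of the sum of the 6 neural markers, which came to 94.7 and 99.8 FPKM in shControl and to 171 and 181 FPKM in shLOXL2. The part of these markers in the other results was not tested.

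**Figure D5:**
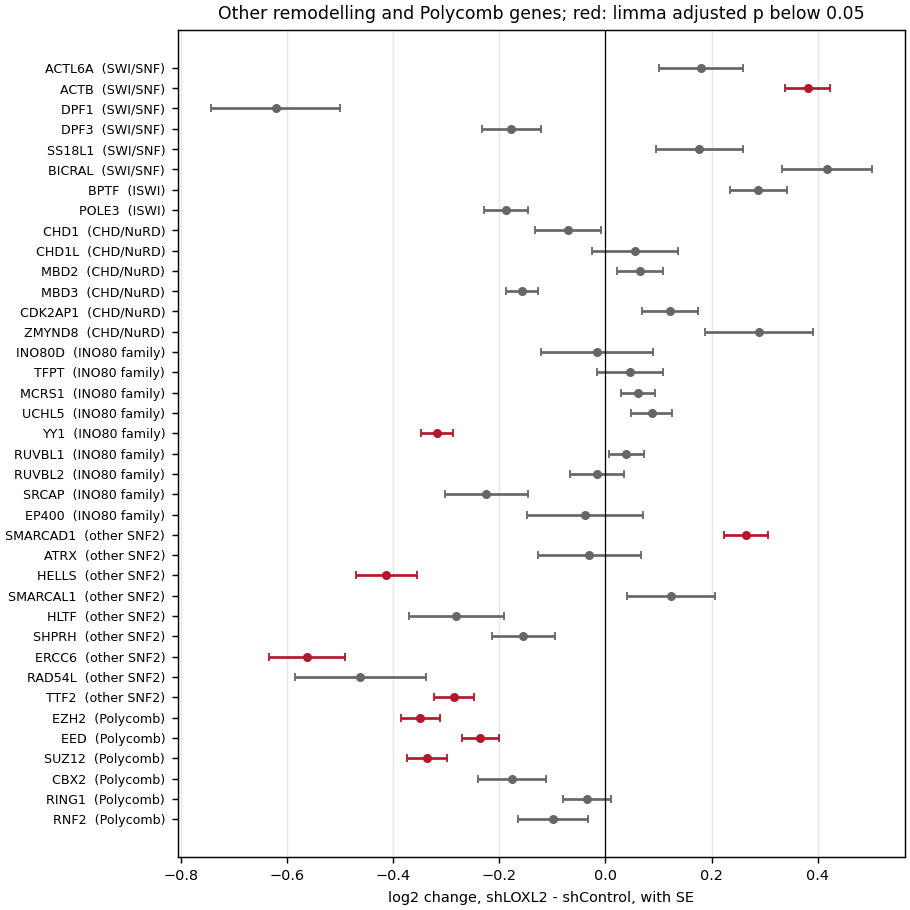
Log2 change with its standard error from limma for 38 tested genes of the remodelling pathway and Polycomb outside the 52 members, labelled by list. Red points passed an adjusted p of 0.05, and they include EZH2, SUZ12 and EED to the left of 0 and ACTB and SMARCAD1 to the right.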

How the data were processed

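Expression values were deposited by the authors as FPKM per Ensembl gene, 1 column for each of 4 RNA libraries. The submitters' processing notes name Bowtie, Cufflinks and GRCh37 with no version. Annotation, strand setting and handling of multiply mapped reads are not stated in the labels. Mean and fold columns of the table were left aside, as were the peak lists, whose coordinates were not joined to genes here. Symbols were matched for 39694 of 63657 identifiers. After a filter that kept 16987 genes averaging 1 FPKM or more, limma 3.58.1 (R 4.3.3) compared 2 shLOXL2 with 2 shControl libraries on log2(FPKM + 1), two-sided, with a trended variance prior and Benjamini-Hochberg adjustment over all tested genes at 0.05. This scale understates changes of low genes. Ratios and sums used exact permutation tests (scipy 1.17.1). The fit was tested on simulated data. Promoter windows came from RefSeq.

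Named with the value in every library were members past the threshold and the 12 motor genes (no member was below the filter). Other pathway genes that passed were named with library values or with a log2 change alone. Further genes with values were chosen after these were seen. SMARCAD1 was moved from the ISWI list to other SNF2 genes. Members and lists were chosen with earlier results of these data known. Alternatives covered the pseudocount (0.1 and 5 FPKM), filter (5 FPKM, none), scaling, variance prior, replicate block, each library left out and, added later, protein-coding genes alone.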

Additional observations from a re-analysis of the deposited data

How the results depend on the processing

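The main fit had 2 members that rose and 4 that fell. The count of rises was 4 at a filter of 5 FPKM (16.7% of members and 25.7% of all genes passed). It was 6 among protein-coding genes alone (21.2% and 38.5%). The count of falls was 2 when low genes were not filtered out (7.69% and 3.16%). It was also 2 when the variance prior had no trend (7.69% and 11.5%). The cause was not tested. With the replicate number as a block 0 members rose and 0 fell in limma, and 0 of all 16987 genes passed, in a fit with fewer degrees of freedom. In that fit 15 of 52 members (6 higher and 9 lower) had an unadjusted p below 0.05, beside 5519 of all 16987 genes. The labels give no sign that equal numbers mark a shared batch, and deviations of same-numbered libraries correlated at r = -0.0013 across genes, which are not independent. With each library left out, the counts ran from 0 to 0 for rises and for falls, and the smallest adjusted p of the members was 0.0932. HDAC1, PHF10, RBBP4 and INO80B each kept their direction under 14 alternatives and their call under 9, BAZ2A under 7 and RBBP7 under 6. Over the left-out libraries the log2 change ran from 0.76 to 0.81 for HDAC1, -1.27 to -1.12 for RBBP4 and -0.63 to -0.58 for PHF10. The count of ratio pairs without overlap ran from 10 to 17 with 1 library left out, where a lone library overlaps less easily. The CHD/NuRD sum differed by -0.034 without shLOXL2 replicate 1 and 0.10 without shLOXL2 replicate 2 (log2).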
